A study of Mus musculus with 20 samples.

Results

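The 5 mature miRNA arms described here, miR-9-5p, miR-9-3p, miR-187-3p, miR-383-5p and miR-193b-3p, were found in every library of cultured mouse macrophages and had far fewer reads, often 0, in dendritic cells grown from the same kind of bone marrow. They were chosen by name for that difference in read counts between the cell types. They are 5 of the 1217 miRNAs detected in the series and 5 of the 374 tested, those with at least 5 CPM (read counts scaled to 1e6 miRNA reads) in at least 2 libraries. A tag, that is a distinct small-RNA sequence with its read count, was assigned to an arm when its 18 to 26 nt matched the annotated hairpin without mismatch and began within 2 nt of the arm's most abundant 5′ end.

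The series holds 20 small-RNA libraries, with 1 library for each combination of cell type, genotype and stimulus. Macrophages were differentiated from flushed bone marrow with M-CSF, and dendritic cells with GM-CSF, each supplied as hybridoma supernatant. The knockout mice carried the B6.Cg-Mir155tm1.1Rsky/J allele, a germline deletion of miR-155, and the wild-type mice were C57BL/6; the mice were 8 to 12 weeks old. Each genotype and cell type was left unstimulated or received LPS, a bacterial ligand of Toll-like receptor 4, or one of the lipoproteins that the labels call oxLDL (oxidised low-density lipoprotein), eLDL and LDL. Dendritic cells received 200 ng/ml LPS overnight from day 8 to 9 of culture. The labels state neither the LPS dose and time for macrophages nor any lipoprotein dose. Nor do they say how many mice or separate cultures lie behind the 5 libraries that share a cell type and genotype, so genotype and culture cannot be told apart, and p-values measure only the spread between these libraries, which may be technical.

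MicroRNAs guide Argonaute proteins to partly complementary messenger RNAs, chiefly through the seed, the bases near the 5′ end, and lower the output of those messages. Each hairpin can give an arm from either side, and usually one of them dominates. The members come from 4 unrelated families. miR-9 is best known from neural progenitors and neurons, and in human monocytes it is induced by Toll-like receptor ligands and targets NFKB1. miR-187-3p is induced by interleukin-10 in human monocytes and lowers TNF production there. miR-383 lies within an intron of Sgcz, a sarcoglycan gene, and is known from testis and tumour studies. miR-193b is made with miR-365 from a shared cluster and is known from brown fat differentiation in mice.

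Mature sequences were taken from RefSeq (GRCm38.p6), in which 3 of the 5 members were matched. They are shown to make the seeds visible, with bases 2 to 8 in capitals. The arms of miR-9 come from opposite sides of 1 hairpin type and have different seeds.
miR-9-5p: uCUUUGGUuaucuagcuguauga
miR-9-3p: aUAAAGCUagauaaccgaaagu
miR-193b-3p: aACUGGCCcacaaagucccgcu
miR-193a-3p: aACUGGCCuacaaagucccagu
miR-365-3p: uAAUGCCCcuaaaaauccuuau
miR-193a-3p is the paralogue of miR-193b-3p on chromosome 11. The paralogues share the seed, and 19 of their 22 bases are identical, with 3 that differ. miR-365-3p is the cluster partner, with a seed of its own; RefSeq places the same mature sequence on chromosomes 11 and 16, so its reads do not tell these loci apart. miR-187-3p and miR-383-5p are given by name.

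In the GRCm38 annotation, miR-9 is encoded at 3 loci. Mir9-1 (chr3:88215598-88215686, plus strand) lies in an intron of the lincRNA Gm3764, Mir9-2 (chr13:83738814-83738885, plus strand) in an exon of the lincRNA C130071C03Rik, and Mir9-3 (chr7:79505264-79505353, plus strand) in an intron of the lincRNA Mir9-3hg. Mir383 (chr8:38252133-38252202, minus strand) lies in an intron of Sgcz on the same strand. Mir193b (chr16:13449523-13449601, plus strand) is followed on the same strand by Mir365-1 (chr16:13453840-13453926) after a gap of 4238 bases. Both lie opposite an intron of the antisense gene Gm15738. Mir187 is on the minus strand of chromosome 18, and its exact position and any overlapping gene are not given here.

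Library depth was 5068803 to 11782024 miRNA reads. The deleted miRNA checked the labels: miR-155-5p had 33 to 45 reads in each knockout macrophage library and 2 to 7 in each knockout dendritic library, which put the knockout mean at 0.0179% and 0.0258% of the wild-type mean in macrophages and dendritic cells. Myeloid marker miRNAs (miR-223-3p, miR-142a-5p, miR-142a-3p and miR-511-3p) were all present, with a summed level of 21635 to 32420 CPM in macrophages and 16972 to 26434 CPM in dendritic cells. Most of this was miR-142a-5p, with 18340 to 29938 and 13814 to 23189 CPM. miR-142a-3p was higher in macrophages (627 to 908.5 against 288 to 441 CPM) and miR-511-3p lower (24.75 to 84.75 against 156 to 281 CPM). The ranges of miR-223-3p overlapped (803 to 2763 and 1287.5 to 3608 CPM). The unstimulated wild-type macrophage library stood apart from the other macrophage libraries. On the first principal component (73.2% of the variance), along which macrophages and dendritic cells parted, it lay at 12.16, against 16.74 to 20.91 for the other 9 macrophage libraries and -19.74 to -15.24 for the dendritic libraries. Calls that rest on it are given with and without it.

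In macrophages, miR-9-5p was by far the most abundant member and made up 0.508% to 1.84% of all miRNA reads. Knockout macrophages had 13100.1 CPM of miR-9-5p with LPS, 18419 with oxLDL, 17259 with eLDL, 17722 with LDL and 15286 without stimulus. Wild-type macrophages had 6908, 12982, 10759, 10581 and 5080.1 CPM in the same order of stimuli. All 5 knockout libraries lay above all 5 wild-type libraries, and the unstimulated wild-type library was the lowest of the 10. Behind these levels stood 36504 to 143993 reads per library. In dendritic cells the same arm had 155, 60, 62, 67 and 61 reads in knockout libraries, in the same order of stimuli. Wild-type dendritic libraries had 166, 38, 22, 47 and 62 reads. These amount to 6.77 to 14.6 CPM in knockout and 4.34 to 18.9 CPM in wild-type dendritic cells, so even the highest dendritic library lay far below the lowest macrophage library.

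The opposite arm, miR-9-3p, was present at far lower levels. Knockout macrophages had 61.0, 104 and 82.0 CPM with LPS, oxLDL and eLDL, 81.9 with LDL and 45.8 without stimulus, from 431 to 792 reads. Wild-type macrophages had 38.4, 65.2, 45.7, 38.7 and 15.2 CPM in that order, from 109 to 556 reads. Within each stimulus the knockout library was the higher, although the groups overlapped across stimuli. No miR-9-3p read was found in any of the 5 knockout dendritic libraries, and the wild-type ones held 2 reads with eLDL, 3 with LDL and none in the other 3. A count of 0 allows up to 3 reads.

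miR-187-3p reached 153 CPM with LPS, 177 with oxLDL, 187.0 with eLDL, 173 with LDL and 102 without stimulus in knockout macrophages. In wild-type macrophages it had 21.1, 82.2, 100.2, 67.7 and 13.9 CPM. The groups did not overlap, but the highest wild-type library, with eLDL, almost met the unstimulated knockout library. The wild-type libraries with LPS and without stimulus formed a low pair of 168 and 100 reads, against 645 to 798 reads with the lipoproteins. Dendritic libraries held 9, 0, 2, 0 and 10 reads in the knockout and 3, 6, 4, 0 and 4 in the wild type, in the order LPS, oxLDL, eLDL, LDL and none.

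miR-383-5p, the least abundant member, had 29.4, 37.5, 33.5, 38.4 and 12.7 CPM in knockout macrophages in that order, from 231, 287, 241, 265 and 120 reads. Wild-type macrophages had 3.26, 10.1, 12.0, 9.51 and 1.25 CPM, from 26, 86, 77, 112 and 9 reads. Every knockout library exceeded every wild-type library, and the lowest value rested on 9 reads. In dendritic cells the only reads were 5 in the unstimulated knockout library, and the other 9 libraries had 0.

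miR-193b-3p had similar levels in both genotypes with the lipoproteins. It had 55.2, 56.9, 53.9, 66.2 and 27.2 CPM in knockout macrophages and 33.4, 49.6, 48.2, 63.2 and 12.8 CPM in wild-type macrophages, from 92 to 745 reads. The unstimulated library was the lowest in both genotypes and the LDL library the highest. Dendritic libraries held 18, 4, 0, 0 and 6 reads in the knockout and 5, 2, 0, 7 and 5 in the wild type.

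**Figure D1:**
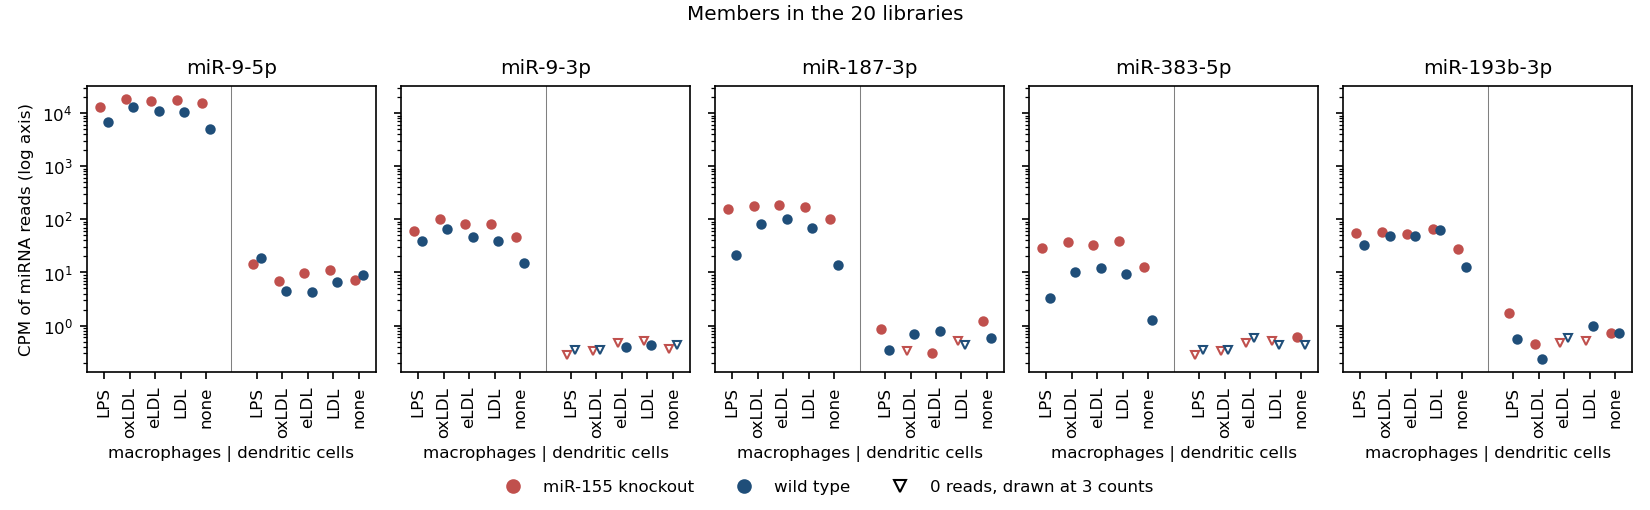
CPM of miRNA reads on a log axis for each member in each of the 20 libraries, macrophages left of dendritic cells, with knockout in red and wild type in blue; open triangles are libraries with 0 reads, drawn at 3 counts. Every macrophage point of every member lies above every dendritic point, and the unstimulated wild-type macrophage library is the lowest macrophage point of each member.

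The difference between the cell types chose the members and is given as a description. In bulk cultures, fewer cells that make a miRNA and less of it per cell cannot be told apart. Pooled over 10 libraries each, miR-9-5p had 1030470 reads in macrophages and 740 in dendritic cells, a CPM ratio of 1315 (95% exact counting interval 1223 to 1415). For miR-9-3p, with 4579 and 5 reads, the ratio was 865 (370.3 to 2664). miR-187-3p had 8473 and 38 reads and a ratio of 211 (153 to 298), and miR-383-5p had 1454 and 5 reads and a ratio of 275 (117 to 847). miR-193b-3p had the smallest ratio, 76.4 (57.4 to 104), from 3805 and 47 reads. The intervals of the 3 members with fewest dendritic reads are wide, and all of them cover counting error only. Ranked over the 374 tested miRNAs by the ratio of mean CPM with a pseudocount of 1 CPM, miR-9-5p was 1st, miR-187-3p 2nd, miR-9-3p 3rd, miR-193b-3p 8th and miR-383-5p 13th. All 10 macrophage libraries lay above all 10 dendritic libraries for each member; this held for 14.7% of the tested miRNAs, and a ratio of mean CPM over 10 held for 8.56%.

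Within matched pairs of genotype and stimulus, the macrophage-to-dendritic ratio of miR-9-5p ranged from 366 in wild type with LPS to 2919 in wild type with oxLDL. The dendritic mean was 0.0727% of the macrophage mean for miR-9-5p, 0.143% for miR-9-3p, 0.443% for miR-187-3p, 0.319% for miR-383-5p and 1.16% for miR-193b-3p. For comparison, miR-9-5p averaged 9.31 CPM in dendritic cells, while the deleted miR-155-5p still read 0.565 CPM on average in knockout dendritic cells and 4.73 CPM in knockout macrophages. The dendritic levels of the other 4 members averaged 0.0599 to 0.540 CPM.

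The relatives made from the same or paralogous hairpins were also mostly higher in macrophages. miR-365-3p, which pools the cluster hairpin Mir365-1 with the chromosome 11 locus, had 10166 reads in macrophages and 701 in dendritic cells. The ratio was 13.7 (12.7 to 14.8), and no library overlapped. The 5p arms tell these loci apart. miR-365-1-5p, from the hairpin beside Mir193b, had 109 macrophage and 0 dendritic reads, and miR-365-2-5p, from the other locus, had 1186 and 52. miR-193a-3p had 435 and 29 reads and a ratio of 14.2 (9.72 to 21.4), with 5 dendritic libraries at 0. The minor arms miR-187-5p (397 reads) and miR-193b-5p (133 reads) had 0 dendritic reads over the 10 libraries. The minor arm of the miR-383 hairpin had 0 reads in all 20 libraries. Of these 8 relatives, 7 were detected and 5 were tested.

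miR-155 knockout macrophages held more of 4 of the 5 members than wild-type macrophages. miR-383-5p rose most, followed by miR-187-3p and then both arms of miR-9, whereas miR-193b-3p did not pass the test. Mean levels of miR-9-5p were 16357 ± 2161 CPM in knockout and 9262 ± 3196 CPM in wild-type macrophages (SD over the 5 stimulus states of a genotype). For miR-9-3p they were 74.9 ± 22.2 and 40.6 ± 17.9 CPM, and for miR-187-3p 159 ± 33.9 and 57.0 ± 38.0 CPM. miR-383-5p averaged 30.3 ± 10.5 CPM in knockout and 7.21 ± 4.67 CPM in wild-type macrophages. miR-193b-3p averaged 51.9 ± 14.6 and 41.4 ± 19.2 CPM.

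All 20 libraries were fitted together with edgeR's quasi-likelihood test, with genotype within cell type and stimulus within cell type, and p-values were adjusted by Benjamini-Hochberg over all 374 miRNAs. The log2 change, knockout over wild type, was 0.73 ± 0.18 (SE) for miR-9-5p, with an adjusted p of 0.00886. It was 0.80 ± 0.17 for miR-9-3p (adjusted p 0.00361) and 1.62 ± 0.39 for miR-187-3p (adjusted p 0.0136). The largest change among the members was that of miR-383-5p, 2.13 ± 0.32 (adjusted p 0.000336). miR-193b-3p had 0.28 ± 0.27 (adjusted p 0.541). Thus 4 of 5 were called higher and 0 lower, where the background was 24.1% of tested miRNAs called in either direction, 9.36% higher and 14.7% lower. The median log2 change was 0.80 for the members and -0.04 for all tested miRNAs.

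Every member was higher in the knockout in all 5 pairs, as were 24.3% of tested miRNAs. On CPM, knockout and wild-type libraries did not overlap for miR-9-5p, miR-187-3p and miR-383-5p, which held for 6.68% of tested miRNAs. The margins were narrow. In that order, the lowest knockout library had 13100.1, 102.0 and 12.7 CPM, and the highest wild-type library 12981.7, 100.2 and 12.0 CPM. Overlap under the TMM scaling of the fit was not examined. The pairs were unequal in size. For miR-187-3p the knockout-to-wild-type ratio was 7.28 (95% exact counting interval 6.19 to 8.60) with LPS and 7.33 (5.96 to 9.10) without stimulus, but 2.15 (1.96 to 2.36), 1.87 (1.70 to 2.05) and 2.56 (2.34 to 2.80) with oxLDL, eLDL and LDL. miR-383-5p showed the same order, with ratios of 9.03 (6.01 to 14.1) with LPS and 10.2 (5.18 to 22.8) without stimulus, against 3.72, 2.80 and 4.04 with the lipoproteins. In both miRNAs the low wild-type libraries with LPS and without stimulus set these 2 large ratios. miR-9-5p had ratios of 1.90, 1.42, 1.60 and 1.68 with LPS, oxLDL, eLDL and LDL and 3.01 without stimulus. For miR-193b-3p the ratio was 1.65 with LPS and 2.12 without stimulus, and the eLDL and LDL intervals (0.961 to 1.30 and 0.929 to 1.18) included 1.

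**Figure D2:**
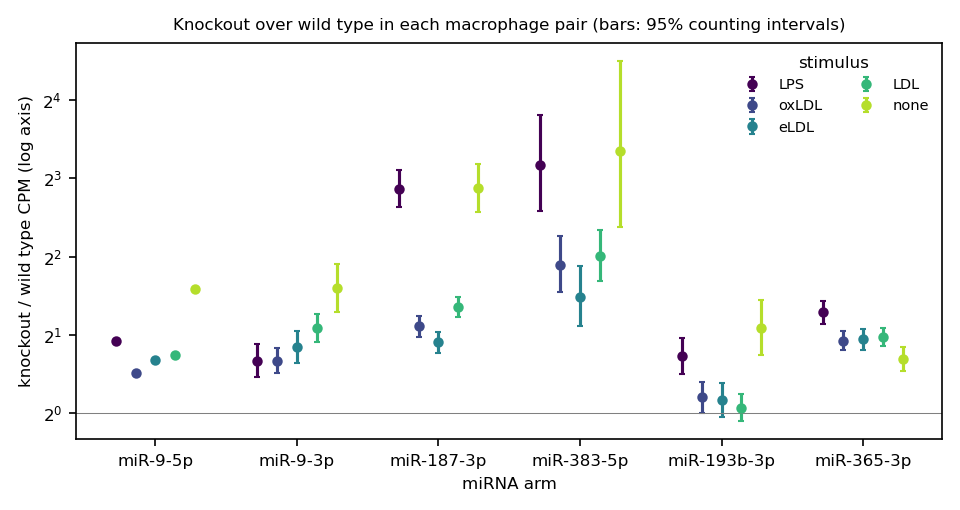
Ratio of CPM in knockout over wild-type macrophages (log axis) for each member and for miR-365-3p, with 1 point per stimulus and bars for 95% exact counting intervals. miR-187-3p and miR-383-5p have their largest ratios with LPS and without stimulus (7.28 and 7.33, 9.03 and 10.2), and miR-193b-3p has ratios near 1 with the lipoproteins.

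The 4 calls remained when any 1 library was left out and, as an alternative chosen after the values were seen, without both unstimulated macrophage libraries, where the log2 changes were 0.63, 0.74, 1.44 and 2.02 for miR-9-5p, miR-9-3p, miR-187-3p and miR-383-5p. When all 1217 detected miRNAs were tested with no filter, miR-9-5p (0.76, adjusted p 0.122) and miR-187-3p (1.66, adjusted p 0.101) were no longer called. Scaling moved the background. Of 90 called miRNAs 35 were higher with TMM scaling, against 65 of 106 with total miRNA reads, 56 of 109 with DESeq2 and 116 of 149 with upper-quartile scaling, where the median of all miRNAs moved to 0.12, 0.03 and 0.30 log2. The members were higher in the knockout under each of these, and miR-9-5p, for example, had 0.89, 0.80 and 1.07 in the same order.

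miR-365-3p was called higher in knockout macrophages (log2 change 0.80 ± 0.17, adjusted p 0.00188), unlike miR-193b-3p, and the difference between them was not tested. Its reads pool the hairpin beside Mir193b with the chromosome 11 locus, so a change of the cluster partner alone cannot be read from them. miR-365-3p had 163.5, 189.9, 184.9, 193.5 and 114 CPM in knockout macrophages with LPS, oxLDL, eLDL, LDL and none, against 67.1, 100.3, 96.5, 99.1 and 71.0 CPM in wild-type macrophages. The genotypes did not overlap. The minor arm miR-187-5p had 1.63 ± 0.58 (adjusted p 0.0633), close in size to its partner arm. In the same order of stimuli it had 64, 97, 71, 26 and 36 reads in knockout and 16, 26, 36, 25 and 0 in wild-type macrophages. Among wild-type libraries only eLDL (5.59 CPM) reached 5 CPM. This arm thus passed the filter through knockout libraries, which may enlarge its change, and the size of that effect was not tested. The paralogue miR-193a-3p had 0.87 ± 0.53 (adjusted p 0.299).

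In the listed members and relatives together, 10 of 13 were tested in this comparison, of which 5 were called higher and 0 lower. Among 22 miRNAs linked to Toll-like receptor and NF-κB signalling in myeloid cells, all tested, 5 were higher, 9 lower and 8 not called, with a median of -0.36. The list includes miR-9-5p, miR-9-3p and miR-187-3p, which are among those called higher, and the deleted miR-155-5p, which is among the lower. From that list, let-7e-5p (-2.14 ± 0.13, adjusted p 3.23e-09) and miR-99b-5p (-1.79 ± 0.11, adjusted p 3.23e-09) fell, while miR-146a-5p, a brake on Toll-like receptor signalling, rose (0.60 ± 0.12, adjusted p 0.000988). Of the 5 stromal marker miRNAs 3 were tested, of which 1 was called lower in knockout macrophages and 2 were not called. The 5-miRNA stromal list had 4 detected and a summed level of 30.5 to 221 CPM in knockout macrophages, against 5 detected and 139 to 527 CPM in wild-type macrophages, most of it miR-143-3p and miR-10b-5p. These ranges overlapped. Over all macrophage libraries, the list had 11444 reads of miR-10b-5p, 4595 of miR-143-3p, 236 of miR-199a-3p, 42 of miR-145a-5p and 6 of miR-214-3p. The part of such cells in the result was not tested.

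Because miR-9 is best known from the nervous system, neural marker miRNAs were examined too. miR-124-3p and miR-137-3p had 0 reads in all 20 libraries, and miR-153-3p and miR-218-5p had 0 reads in all 10 macrophage libraries. The 9-miRNA neural list had 5 detected in macrophages, with a summed level of 969 to 2188 CPM in knockout and 815 to 1815 CPM in wild-type macrophages. In dendritic cells it was 895 to 2709 CPM. Most of this was miR-7a-5p, with 713 to 2052 CPM in macrophages and 733 to 2564 CPM in dendritic cells. miR-138-5p of the same list was higher in macrophages, with 2268 reads (13.7 to 47.2 CPM), against 108 reads (0.580 to 2.17 CPM) in dendritic cells. miR-128-3p went the other way, with 6549 reads (55.4 to 98.0 CPM) in macrophages and 10692 (103.5 to 176.5 CPM) in dendritic cells. miR-129-5p had 586 and 910 reads and miR-219a-5p 102 and 87, with overlapping ranges. The part of neural cells in the miR-9 levels was not tested.

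In dendritic cells the knockout could be compared for miR-9-5p alone, which had 0.31 ± 0.24 (adjusted p 0.498) where 6.68% of tested miRNAs were called (3.21% higher and 3.48% lower). The other members had too few dendritic reads for a fold change, and their read counts above are the result.

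The lipoproteins raised 3 of the 5 members in macrophages over the unstimulated cells, but each call rested on the unstimulated wild-type library. With oxLDL, eLDL and LDL as 1 group, miR-383-5p had a log2 change of 1.94 ± 0.46 (adjusted p 0.0129), miR-193b-3p 1.39 ± 0.38 (adjusted p 0.0221) and miR-9-3p 1.12 ± 0.23 (adjusted p 0.00582). miR-187-3p had 1.45 ± 0.53 (adjusted p 0.139) and miR-9-5p 0.50 ± 0.24 (adjusted p 0.226). The background was 12.3% called, 4.81% higher and 7.49% lower, and the median was 1.39 for the members and 0.00 for all tested miRNAs. Without the unstimulated wild-type library, the values were 1.59 for miR-383-5p (adjusted p 0.124), 1.10 for miR-193b-3p (adjusted p 0.217) and 0.85 for miR-9-3p (adjusted p 0.134), and the number of called miRNAs fell to 14, against 46 with all libraries. The miR-383-5p call was also lost with tags of 20 to 24 nt at the main 5′ end (1.81, adjusted p 0.055). Without the unstimulated knockout library, miR-9-5p was called (1.10, adjusted p 0.0174). Of the 46 called miRNAs 18 were higher, against 36 of 56 with scaling to total reads, where the median of all miRNAs moved to 0.16, and 29 of 60 with DESeq2.

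Each member was above its unstimulated level in all 6 lipoprotein libraries, 3 of each genotype. The 3 libraries of a genotype share a single unstimulated control, and the share of all tested miRNAs with this pattern was not counted. The mean of the 3 lipoprotein libraries over the unstimulated library was 2.86 in knockout and 8.40 in wild-type macrophages for miR-383-5p. For miR-187-3p it was 1.76 and 5.99, for miR-193b-3p 2.17 and 4.19, for miR-9-3p 1.95 and 3.29, and for miR-9-5p 1.16 and 2.25. The wild-type ratio was the larger for all 5 members, a pattern not counted over all tested miRNAs. Each wild-type ratio is set on the unstimulated library that stood apart. A test of this genotype difference, chosen after the values were seen with the 3 lipoproteins taken as replicates, called no member. It cannot be made without the unstimulated wild-type library. The knockout-minus-wild-type difference in log2 response was -0.93 ± 0.28 for miR-9-5p and -1.74 ± 0.52 for miR-187-3p (adjusted p 0.169 each), and -1.52 ± 0.63 for miR-383-5p (adjusted p 0.37). miR-9-3p had -0.72 ± 0.49 and miR-193b-3p -0.94 ± 0.65 (adjusted p 0.684 each), where 0.535% of tested miRNAs were called.

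The lipoproteins were also fitted one at a time. oxLDL raised miR-9-3p (1.36 ± 0.27, adjusted p 0.00728) and miR-383-5p (1.84 ± 0.51, adjusted p 0.0374), with 12% of miRNAs called, 4.81% higher and 7.22% lower. eLDL raised the same pair, miR-383-5p by 2.02 ± 0.52 (adjusted p 0.0266) and miR-9-3p by 1.04 ± 0.27 (adjusted p 0.0277), with 9.89% called, 4.81% higher and 5.08% lower. LDL raised miR-193b-3p (1.67 ± 0.43, adjusted p 0.0316), miR-383-5p (1.96 ± 0.51, adjusted p 0.033) and miR-9-3p (0.95 ± 0.27, adjusted p 0.0467), with 8.82% called, 4.01% higher and 4.81% lower. All of these single-lipoprotein calls were lost without the unstimulated wild-type library, where they ranged from 0.67 for miR-9-3p with LDL to 1.62 for miR-383-5p with eLDL. Each was also lost without the wild-type library of its own lipoprotein (1.02 to 1.79). Of 27 alternatives, the miR-9-3p call was lost in 2 with oxLDL, 6 with eLDL and 11 with LDL, the miR-383-5p call in 5, 3 and 5, and the miR-193b-3p call in 3 with LDL. With tags of 20 to 24 nt at the main 5′ end, for example, miR-9-3p with LDL had 0.92 (adjusted p 0.12) and miR-383-5p 1.90 (adjusted p 0.0976). In turn, miR-193b-3p was called in 9 of 27 alternatives with oxLDL and 7 with eLDL, among them DESeq2 (1.29 and 1.28), no filter (1.33 and 1.36) and macrophages alone (1.37 and 1.28). The single-lipoprotein comparisons share their unstimulated controls with one another and with the LPS comparison.

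LPS brought none of the 5 members in macrophages past an adjusted p of 0.05 in edgeR's test of all 20 libraries, where 18.4% of tested miRNAs were called, 11% higher. The log2 change over unstimulated cells was 0.07 ± 0.28 for miR-9-5p (adjusted p 0.90) and 0.83 ± 0.27 for miR-9-3p (adjusted p 0.053). It was 0.61 ± 0.59 for miR-187-3p (adjusted p 0.532), 1.22 ± 0.51 for miR-383-5p (adjusted p 0.122) and 1.17 ± 0.43 for miR-193b-3p (adjusted p 0.0795). Unadjusted, miR-9-3p (0.00992), miR-193b-3p (0.0171) and miR-383-5p (0.0327) had a p under 0.05, and DESeq2 called miR-9-3p (0.78, adjusted p 0.0413) and miR-193b-3p (1.11, adjusted p 0.00847). edgeR called both with no filter (0.90, adjusted p 0.0328, and 1.24, adjusted p 0.00286) and with macrophages alone (0.87, adjusted p 0.0301, and 1.20, adjusted p 0.0116). Without the unstimulated wild-type library the values were -0.30, 0.52, 0.11, 0.84 and 0.85 for miR-9-5p, miR-9-3p, miR-187-3p, miR-383-5p and miR-193b-3p, with adjusted p-values of 0.331 to 0.941. miR-9-5p moved in opposite directions in the genotypes, with an LPS-to-unstimulated ratio of 0.857 (0.850 to 0.864) in knockout and 1.36 (1.34 to 1.38) in wild-type macrophages. The wild-type ratio is set on the unstimulated library that stood apart, and the intervals cover counting error only. The difference in LPS response, knockout minus wild type, was -0.46 ± 0.34 log2 (adjusted p 0.705), so it was not called.

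Set against the lipoproteins, LPS gave lower fitted values of all 5 members and no call. The median log2 change was -0.44 for the members and 0.07 for all tested miRNAs. The log2 changes, LPS over lipoproteins, were -0.44 ± 0.24 for miR-9-5p, -0.29 ± 0.22 for miR-9-3p, -0.84 ± 0.51 for miR-187-3p, -0.72 ± 0.41 for miR-383-5p and -0.23 ± 0.35 for miR-193b-3p, with adjusted p-values of 0.288 to 0.722 and 13.6% of tested miRNAs called. The contrast was most uneven for miR-187-3p. It had 153 CPM with LPS and 173 to 187.0 CPM with lipoproteins in knockout macrophages, against 21.1 and 67.7 to 100.2 CPM in wild-type macrophages. The difference between the genotypes in this contrast, knockout minus wild type, was 1.94 ± 0.52 log2 (adjusted p 0.0668), with 2.41% of miRNAs called.

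**Figure D3:**
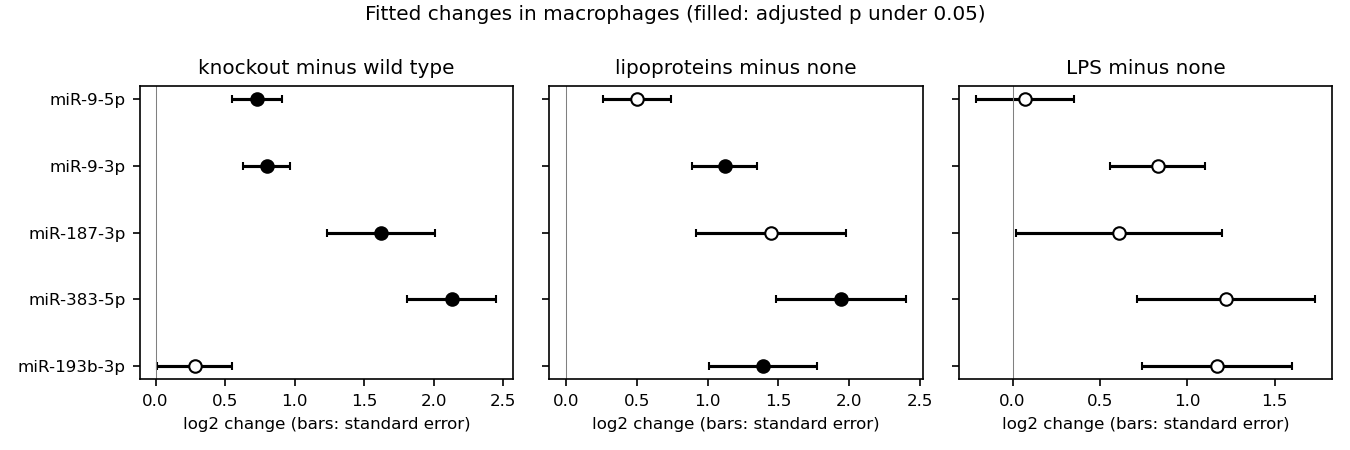
Fitted log2 changes in macrophages with standard errors for knockout over wild type, lipoproteins over none and LPS over none; filled points have an adjusted p under 0.05. The points of miR-9-5p, miR-9-3p, miR-187-3p and miR-383-5p are filled for genotype, those of miR-9-3p, miR-383-5p and miR-193b-3p for lipoproteins, and none for LPS.

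In dendritic cells miR-9-5p rose with LPS, although from a very low base. Read counts were 155 with LPS and 61 without in the knockout, and 166 with LPS and 62 without in the wild type. In CPM this was 14.6 against 7.31 and 18.9 against 8.99. The fitted log2 change was 1.55 ± 0.35 (adjusted p 0.00548, edgeR), with 22.5% of miRNAs called, 12.3% higher. The call was lost without the wild-type LPS library (0.97, adjusted p 0.131), without the unstimulated knockout library (1.10, adjusted p 0.126) and with no filter (1.48, adjusted p 0.107). Scaling to total miRNA reads, which moved the median of all miRNAs to -0.47 in this comparison and called 26 of 151 miRNAs higher against 46 of 84 with TMM, gave 1.05 (adjusted p 0.0288). miR-365-3p, pooled over its loci, fell in the same comparison (-1.27 ± 0.32, adjusted p 0.00829), with 36 and 27 reads with LPS against 74 and 94 without in knockout and wild-type cells. Lipoproteins gave miR-9-5p a log2 change of -0.07 ± 0.31 in dendritic cells (adjusted p 0.962), where edgeR called 0 of 374 miRNAs, 43 had an unadjusted p under 0.05 and DESeq2 called 7.

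The reads also show how the members were cut. Both arms of miR-9 were recovered from macrophages, and the 3p arm made up 0.451% ± 0.0945 of miR-9 reads in knockout and 0.427% ± 0.102 in wild-type macrophages (SD, n = 5 each; exact two-sided permutation test, p = 0.69, where the smallest possible p is 0.00794). It was lowest in the unstimulated libraries, at 0.298% in both genotypes. With tags restricted to 20 to 24 nt at the main 5′ end, the share over the 10 libraries was 0.242%, against 0.439%, because miR-9-3p has more than 1 common start. The minor arm miR-187-5p made up 4.63% (95% exact binomial interval 4.12 to 5.17) of both arms' reads in knockout and 4.10% (3.36 to 4.95) in wild-type macrophages. For miR-193b-5p these were 2.86% (2.18 to 3.68) and 3.93% (3.10 to 4.90).

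miR-9-5p began at 1 position in 99.8% of macrophage reads and had 23 nt in 71.0%. miR-9-3p was divided. In 55.3% of its 4579 reads it began 1 base downstream of the RefSeq start, and in 42.9% at the RefSeq start. The shift moves the seed by 1 base, as the deposited tag of the more common form shows beside the RefSeq sequence given above, with bases 2 to 8 again in capitals.
miR-9-3p shifted by 1: tAAAGCTAgataaccgaaagt
No mature mouse miRNA in the RefSeq table has that seed. miR-187-3p began at its main position in 76.0% of reads and 1 base upstream in 22.9%, and miR-383-5p in 74.4% and 24.7%. miR-193b-3p was uniform, with 95.2% at 1 start. The annotated Mir187 hairpin ends at position 61, which is also the last base of the most abundant miR-187-3p tag, so longer tags of this arm could not be matched. In 10 exact permutation tests of the share at the main 5′ end and at the main length, knockout against wild-type macrophages, none passed (two-sided, n = 5 each, lowest p = 0.183, adjusted over the 10 tests 0.992). The smallest possible p of such a permutation test is 0.00794, so after the adjustment a difference in a single share could not have passed. The tests did not match libraries by stimulus.

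**Figure D4:**
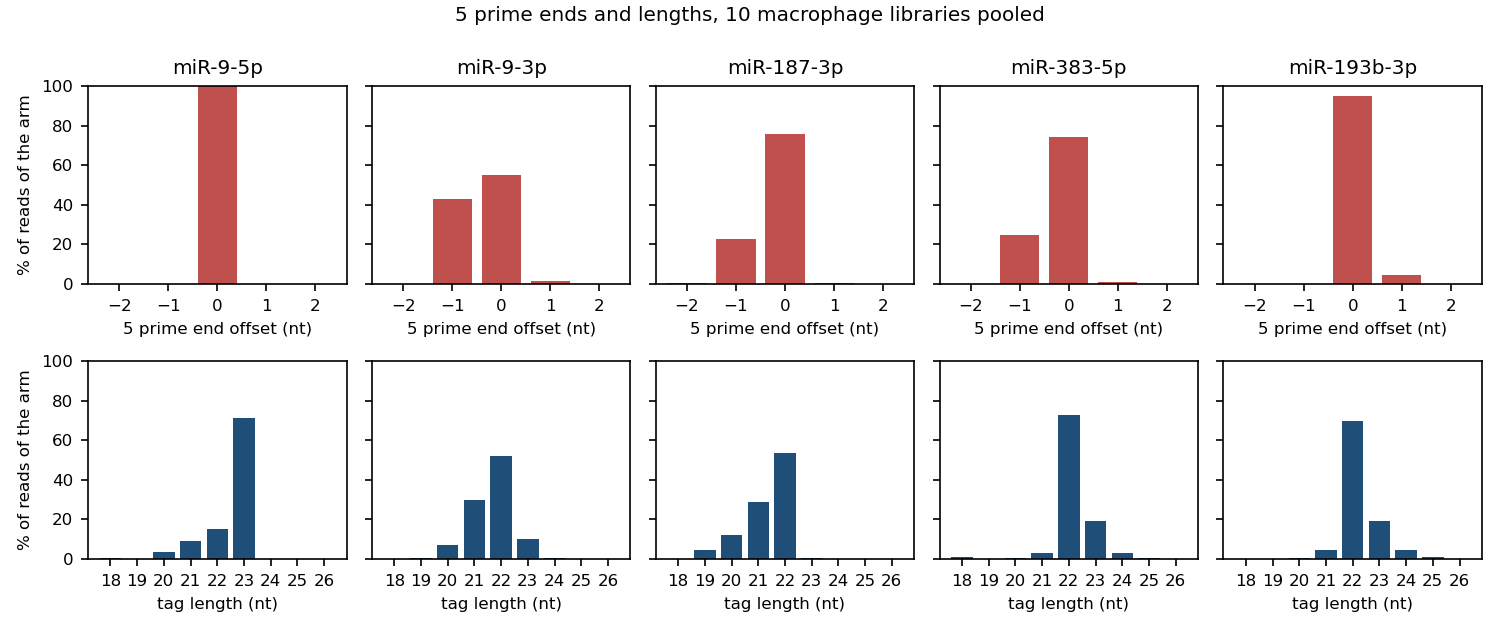
Percentage of each member's reads by 5′ end offset from the main start (top, nt) and by tag length (bottom, nt), pooled over the 10 macrophage libraries. miR-9-5p has 1 start (99.8%), miR-9-3p is divided between neighbouring starts (55.3% and 42.9%), and miR-187-3p and miR-383-5p have a minor start 1 base upstream (22.9% and 24.7%).

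The 3 miR-9 loci give identical mature arms, so most reads cannot be placed: 1034838 macrophage reads and all 745 dendritic reads fit every locus. A small remainder extends past the mature arms into bases that differ between the hairpins. In macrophages, 27 tags with 264 reads fit Mir9-3 alone, 154 reads in knockout and 110 in wild type, whereas Mir9-1 alone and Mir9-2 alone had 1 read each. A further 185 reads fit Mir9-1 or Mir9-2 but not Mir9-3, so reads that exclude Mir9-3 were present too. Of the 264 reads, 149 began before the mature 5p start, 91 reached into the loop and 24 lay on the 3p side. The most abundant such tag, with 74 reads, is shown with the base that sets Mir9-3 apart in capitals.
Mir9-3 only: Ctctttggttatctagctgtatga
These reads were 0.0255% of all miR-9 reads in macrophages. In the reads that reach into the loop, a template base and one added after cutting cannot be told apart.

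Across the 10 macrophage libraries, the pattern of each member on the log2(CPM + 1) scale was set against all tested miRNAs. The most similar to miR-9-5p were miR-181c-3p (Pearson r 0.991), miR-181d-5p (0.976) and miR-187-3p (0.961). miR-187-3p was most similar to miR-383-5p and miR-425-3p (0.978 each), and miR-383-5p to miR-187-3p (0.978) and miR-181c-3p (0.971). miR-9-3p was closest to miR-151-3p (0.967) and miR-149-5p (0.955), ahead of its own partner arm (0.920). miR-193b-3p was closest to miR-149-5p (0.929) and less so to miR-365-3p (0.653), which pools its cluster partner with the chromosome 11 locus. The median over all pairs of tested miRNAs was 0.053. These values describe 10 libraries that differ in genotype, stimulus and depth, and the unstimulated wild-type library is low for every member.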

How the data were processed

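Small RNA was sequenced from 20 mouse libraries, and the deposited files list distinct sequences of 18 to 45 nt with a read count each. CASAVA 1.8.2 is named in the submitters' processing notes. Per the labels' protocols, RNA came from Trizol lysates and the kit was Illumina's TruSeq. Reads carry no molecular identifiers, so intervals and limits cover counting error only.

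Tags between 18 and 26 nt had to match 1 of 1178 miRNA hairpins (GENCODE M21, GRCm38) exactly, with arms set by RNAfold 2.7.2 and reads that fit several miRNAs divided equally. CPM is per 1e6 miRNA reads. Counts were fitted with edgeR 4.0.16 (R 4.3.3; TMM, quasi-likelihood test, 8 residual degrees of freedom, Benjamini-Hochberg at 0.05); each library is assumed to vary like the others. Alternatives were DESeq2 1.42.0, other scalings, no filter, tags of 1 miRNA only, tags of 20 to 24 nt at the main 5′ end, macrophages alone and leaving out each library. A count of 0 was read as up to 3 reads.

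The members, lists and tests were chosen with earlier results of these data known. The named miRNAs are the members, their hairpin, paralogue and cluster relatives, the listed markers and the 3 miRNAs with the most similar pattern.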

Additional observations from a re-analysis of the deposited data

How the results depend on the processing

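Over 1034 comparisons of a value with an alternative, 945 kept direction and side of the threshold, 44 lost a call, 36 gained one and 8 changed sign; the remaining 1 is the share of the miR-9 3p arm, which has no test and moved. None of those that changed sign was called. When leaving out 1 library, LPS over none in macrophages ranged from -0.30 to 0.68 for miR-9-5p and from -0.24 to 1.59 for miR-187-3p, LPS over lipoproteins from -0.48 to 0.04 for miR-193b-3p, and lipoproteins over none in dendritic cells from -0.51 to 0.25 for miR-9-5p. LPS over none in macrophages became -0.0033 for miR-9-5p with tags of 20 to 24 nt at the main 5′ end and -0.30 without the unstimulated wild-type library, and -0.24 for miR-187-3p without the knockout LPS library. LPS over lipoproteins became 0.04 for miR-193b-3p without the wild-type LPS library. Lipoproteins over none in dendritic cells became 0.01 for miR-9-5p with tags of 20 to 24 nt at the main 5′ end, and 0.25, 0.08 and 0.02 without the wild-type unstimulated, eLDL and LDL libraries. The causes were not tested.

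Counts of called miRNAs moved as follows. Knockout over wild type went to 51 with DESeq2 against 25 in dendritic cells (16 to 34 when leaving out 1 library) and to 149 with upper-quartile scaling against 90 in macrophages (75 to 94). LDL in macrophages gave 19 in a fit of macrophages alone against 33 (6 to 34), eLDL 37 (1 to 42), oxLDL 45 (4 to 49), lipoproteins together 46 (14 to 51), LPS 69 (50 to 79) and LPS over lipoproteins 51 (36 to 58). In dendritic cells, LPS gave 151 with total-read scaling against 84 (52 to 94), and lipoproteins gave 1 with total-read scaling, 7 with DESeq2, 7 with no filter, 1 with unmixed sequences and 1 with tags of 20 to 24 nt at the main 5′ end, against 0 (0 to 2).

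The macrophage-to-dendritic ratio of mean CPM for miR-9-5p was 1376, with 1134 when scaled to all reads of a file, 1468 with tags of 20 to 24 nt at the main 5′ end and 1299 to 1553 when leaving out 1 library. Left-out ranges were 629.9 to 1317 for miR-9-3p (5 dendritic reads in all), 203 to 271 for miR-187-3p, 277 to 346 for miR-383-5p and 77.7 to 113 for miR-193b-3p. Knockout and wild-type libraries of the same stimulus were already matched in the fit by its stimulus term, and the labels carry no replicate numbers for a further block. Depth limits the dendritic values, where 4 members had 5 to 47 reads in all.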
